A study of Mus musculus with 14 samples.

Results

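Kruppel-like factors (KLF) are transcription factors with C-terminal zinc fingers that bind GC-rich and CACCC sequences in promoters. The genes described here are Klf2, Klf3, Klf4, Klf5, Klf6, Klf9, Klf10, Klf13, Klf15 and Klf16, and every probeset annotated with 1 of these symbols was taken, which gave 24 of the 22626 probesets tested and 10 of 12393 genes. A probeset is the set of short probes that reads 1 gene's RNA on the array. The 10 genes were chosen by their signals in an earlier analysis of these same arrays, so all their differences are given as a description, and the calls below are no independent evidence about them.

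RNA of B16-F10 cells, a melanoma line of the mouse strain C57BL/6J, was measured on 14 Affymetrix arrays, each labelled as a biological replicate. Lipofectamine cells (n = 3) were kept for 3 h with the liposomes, without plasmid DNA, in Opti-MEM and then 30 min in RPMI with 10% serum. Heat shock cells (n = 3) spent 1 h at 42.5 °C and recovered for 30 min at 37 °C. Benzyl alcohol cells (n = 3) received 40 mM for 1 h at 37 °C, followed by a recovery that is 180 min in one description of the series and 30 min in another. Control cells (n = 5) were untreated and grew in RPMI with 10% serum at 37 °C. Since they did not go through the change of medium, the liposomes and the medium cannot be told apart, and the groups also differ in the time from the start of treatment. All groups are 1 cell line, and the p-values measure only the spread between these cultures. In such bulk samples, fewer cells that express a gene and less RNA per cell cannot be told apart.

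The deposited values are log2 signals after RMA, in which a step of 1 is a doubling. Array medians were between 7.03 and 7.12, and arrays correlated with each other at 0.975 to 0.997 over all probesets. The 6 pigment cell markers on the array had mean signals of 10.4 to 13.2. All markers of endothelial cells (4.37 to 7.61), epithelial cells (3.46 to 7.24), fibroblasts (5.45 to 7.33) and macrophages (4.22 to 8.13) were lower, though each list reached above the array medians. The brightest probesets of Klf4 (6.07), Klf10 (6.49), Klf5 (6.64), Klf2 (6.74) and Klf16 (6.76) had mean signals in the range of these other markers. So had those of Klf15 (7.64) and Klf9 (7.95), as the brightest of these markers, Csf1r, was at 8.13. At the brightest probesets of these other cell types' markers 1 call was made against control cells, that of Cd68, a lysosomal protein of macrophages, with benzyl alcohol (0.90 ± 0.14). The mean over the 5 macrophage markers was 5.68 to 6.10 on Lipofectamine arrays, 5.98 to 6.06 on heat shock arrays, 6.00 to 6.17 on benzyl alcohol arrays and 5.71 to 5.92 on control arrays. Of 13 probesets of pigment cell markers, 1 was called lower with Lipofectamine than in control cells (3.10% of all probesets). With heat shock 5 were called lower (4.91% of all, median -0.56 over the 13), and with benzyl alcohol 0 were called (1.39% of all in either direction). The 5 belong to Sox10, a factor of the melanocyte lineage (-0.98 ± 0.20 at its brightest probeset), and Tyr, the pigment enzyme tyrosinase (-0.39 ± 0.10). Mitf, the lineage's main regulator, was higher with benzyl alcohol than with heat shock (1.76 ± 0.45) and Lipofectamine (1.72 ± 0.45). Its mean was 10.97 in control cells, 11.27 with benzyl alcohol, 9.51 with heat shock and 9.55 with Lipofectamine. No Mitf difference from control was called. The part of both marker lists in the results below was not tested. Control arrays 1 and 3 stood apart from control arrays 2, 4 and 5 at 38.7% of all probesets, and results that rest on them are given with and without them. Nothing in the labels sets these arrays apart, so the split rests on the signals themselves. Calls made without either set are a description and no independent evidence.

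The family falls into groups by the partners its members recruit. Klf2, Klf4, Klf5 and Klf6 carry acidic activation domains, Klf3 represses through the co-repressor CtBP, and Klf9, Klf10, Klf13 and Klf16 recruit the co-repressor Sin3A. Klf15 belongs to neither of the repressor groups and is known for control of amino acid and glucose metabolism. Several members, among them Klf2, Klf4, Klf6 and Klf10, are known as early genes, whose RNA is short-lived and responds within hours to serum, growth factors or stress.

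A probeset is called where its adjusted p, from limma with Benjamini-Hochberg adjustment over all 22626 probesets, is under 0.05. Between Lipofectamine and control cells 2 of 24 KLF probesets were called, 1 higher and 1 lower, where 4.88% of all probesets were called (1.78% higher, 3.10% lower). Between heat shock and control cells 2 were called, both lower, where the background was 5.96% (1.05% higher, 4.91% lower). Between benzyl alcohol and control cells 2 were called, 1 higher and 1 lower, with a background of 1.39% (0.689% higher, 0.698% lower). Because the genes were chosen on these arrays, nothing is read from these counts. The median log2 difference over the 24 probesets was 0.13 with Lipofectamine, 0.14 with heat shock and 0.09 with benzyl alcohol, beside -0.02, 0.03 and 0.02 over all probesets. Over these comparisons and the 3 between treatments, 4 probesets were called at least once, those of Klf2, Klf10 and Klf15 and 1 of the 3 of Klf3. The other 20 were called in none, and 6 genes had no called probeset.

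**Figure D1:**
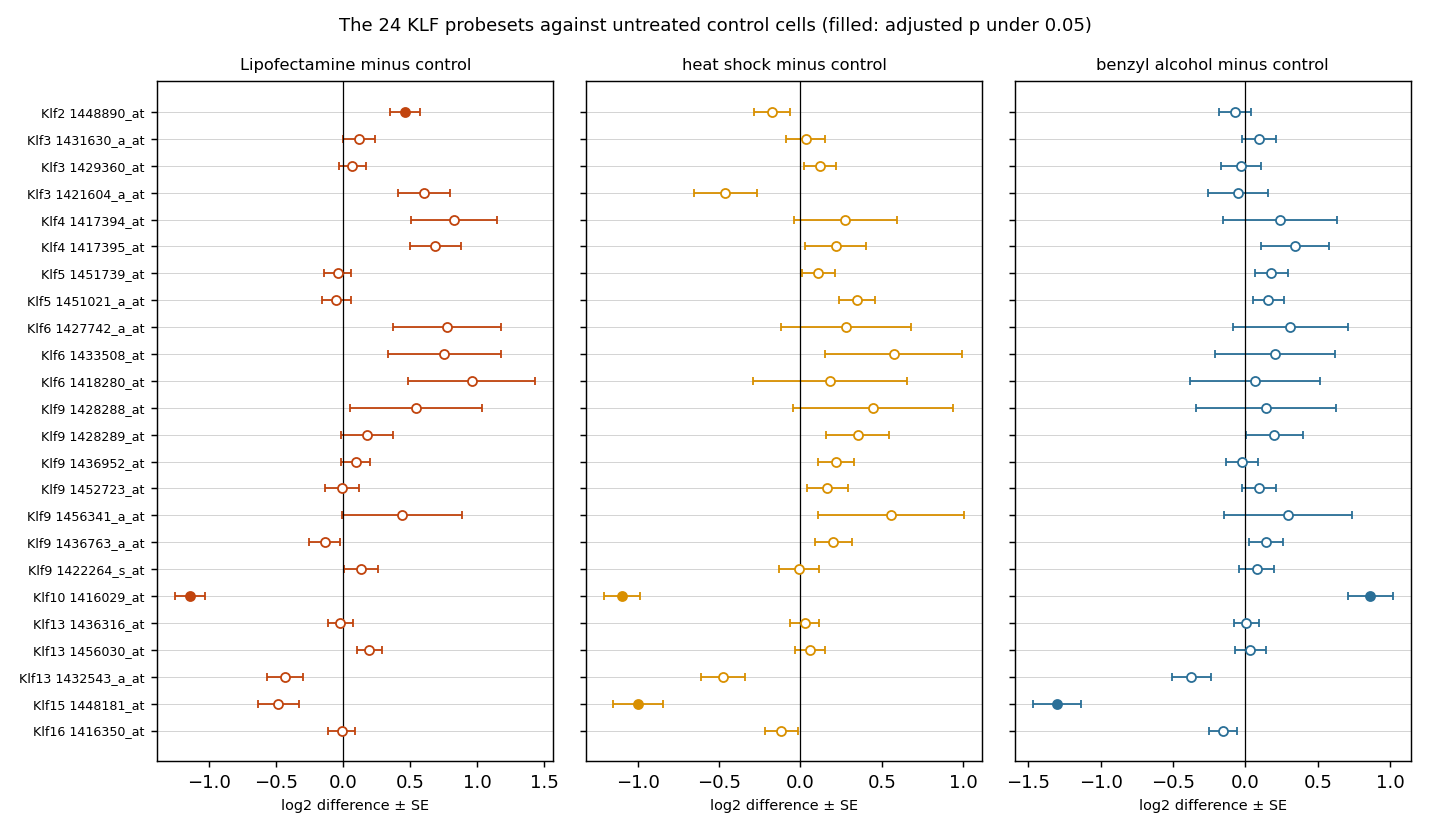
The log2 difference of each of the 24 KLF probesets from control cells is plotted with its standard error for Lipofectamine (left), heat shock (middle) and benzyl alcohol (right), filled where called. Klf10 lies at -1.14 with Lipofectamine and -1.09 with heat shock but at 0.86 with benzyl alcohol, and the widest error bars belong to Klf4, Klf6 and Klf9.

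Klf10, first described as a gene induced early by TGF-beta, showed the widest range of group means of the 10 genes. Its probeset was brighter than 37.7% of all probesets. Its signal was 5.89, 5.70 and 5.36 on the Lipofectamine arrays, 5.58, 5.77 and 5.73 on the heat shock arrays, 7.76, 7.17 and 8.02 on the benzyl alcohol arrays and 6.73, 6.77, 6.79, 6.80 and 6.85 on the control arrays. Every Lipofectamine and heat shock array thus lay below all control arrays, and every benzyl alcohol array above them. The difference from control cells was -1.14 ± 0.11 (SE) with Lipofectamine and -1.09 ± 0.11 with heat shock, or 0.455 and 0.468 of the control signal. With benzyl alcohol it was 0.86 ± 0.15, a 1.82-fold higher signal. All 3 were called. Benzyl alcohol was 1.96 ± 0.17 above heat shock and 1.999 ± 0.17 above Lipofectamine, both called, while Lipofectamine and heat shock differed by -0.04 ± 0.12. In descending order the groups were benzyl alcohol, control, heat shock and Lipofectamine, of which the arrays of the last 2 overlapped. The 5 control arrays spanned 0.12, with arrays 1 and 3 not apart from the others.

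The lower signal with Lipofectamine and heat shock was called under all 20 alternatives run for each, with log2 differences of -1.26 to -0.99 and -1.15 to -1.04. The higher signal with benzyl alcohol was called under 19 of 23. Its call was lost without benzyl alcohol array 1 (0.81) or array 3 (0.68), in a fit of the 2 groups alone and in an unmoderated fit (both 0.86).

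Klf15, a target of the glucocorticoid receptor in several tissues, was lower than in control cells with heat shock and with benzyl alcohol. It measured 7.75, 8.03 and 7.50 on the Lipofectamine arrays, 7.33, 7.09 and 7.31 on the heat shock arrays, 7.05, 7.17 and 6.59 on the benzyl alcohol arrays and 7.87, 8.35, 8.07, 8.56 and 8.35 on control arrays 1 to 5. No heat shock or benzyl alcohol array reached the lowest control array, whereas Lipofectamine array 2 lay within the control range. The difference from control cells was -0.48 ± 0.15 with Lipofectamine, not called, against -0.998 ± 0.15 with heat shock and -1.30 ± 0.17 with benzyl alcohol, both called. These are 0.716, 0.501 and 0.405 of the control signal. Benzyl alcohol was 0.82 ± 0.18 below Lipofectamine, a call that was lost without benzyl alcohol array 3 (-0.65). Benzyl alcohol differed from heat shock by -0.31 ± 0.18, and Lipofectamine differed from heat shock by 0.52 ± 0.17, neither called. All Lipofectamine arrays lay above all heat shock arrays. Their difference was called when control arrays 1 and 3, or control arrays 2, 4 and 5, were left out of the fit, with its value unchanged.

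Control arrays 1 and 3 were the 2 lowest control arrays for Klf15, 0.28 below the next. Without them the differences were -0.66, -1.18 and -1.48 with Lipofectamine, heat shock and benzyl alcohol, and all 3 were called. Against these 2 arrays alone they were -0.21, -0.73 and -1.04, of which the last 2 were called. The heat shock and benzyl alcohol calls stood under all 21 and 24 alternatives run.

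Klf2, known for the quiescence of T cells and for its response to flow in endothelium, was higher with Lipofectamine than in every other group. Its probeset was brighter than 42.8% of all probesets. The Lipofectamine arrays had 7.14, 7.14 and 7.18, the heat shock arrays 6.43, 6.38 and 6.74, the benzyl alcohol arrays 6.70, 6.72 and 6.44, and control arrays 6.45, 6.74, 6.67, 6.77 and 6.84. The 3 Lipofectamine arrays lay above all 11 others, and the remaining groups overlapped. Lipofectamine was 0.46 ± 0.11 above control (1.38-fold) and 0.64 ± 0.12 above heat shock, and benzyl alcohol was 0.53 ± 0.12 below Lipofectamine. These 3 differences were called. The first call was lost when any 1 Lipofectamine array, control array 2 or control array 4 was left out, with differences of 0.45 to 0.48. It was also lost without moderation. The second was lost without heat shock array 1 (0.59) or 2 (0.57), and the third without benzyl alcohol array 3 (-0.44). Heat shock and benzyl alcohol differed from control by -0.17 ± 0.11 and -0.07 ± 0.11, not called.

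Klf3 is read by 3 probesets that did not behave alike. At 1421604_a_at the signal was 7.85, 8.07 and 7.64 with Lipofectamine, 6.68, 6.81 and 6.87 with heat shock, 7.62, 6.96 and 7.02 with benzyl alcohol and 7.91, 6.74, 7.16, 7.20 and 7.24 on the control arrays. Lipofectamine and heat shock arrays did not overlap, and the control arrays spanned 1.16, from near the heat shock arrays to within the Lipofectamine arrays. Lipofectamine was 1.07 ± 0.22 above heat shock, which was called, and 0.61 ± 0.19 above control, which was not. Heat shock was at -0.46 ± 0.19 from control, not called. Both depended on the control arrays, since the Lipofectamine difference was called without control array 1 (0.77) or arrays 1 and 3 (0.80) and the heat shock difference without arrays 2, 4 and 5 (-0.75). The call against heat shock was lost without heat shock array 1 (1.015), Lipofectamine array 1 (1.07) or array 2 (0.96) and in an unmoderated fit. At the brightest probeset, 1431630_a_at, and at 1429360_at, Lipofectamine differed from heat shock by 0.09 ± 0.14 and -0.05 ± 0.11. On these arrays the ending _a_at marks a probeset that reads several transcripts of 1 gene, and which transcripts each Klf3 probeset reads was not tested.

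**Figure D2:**
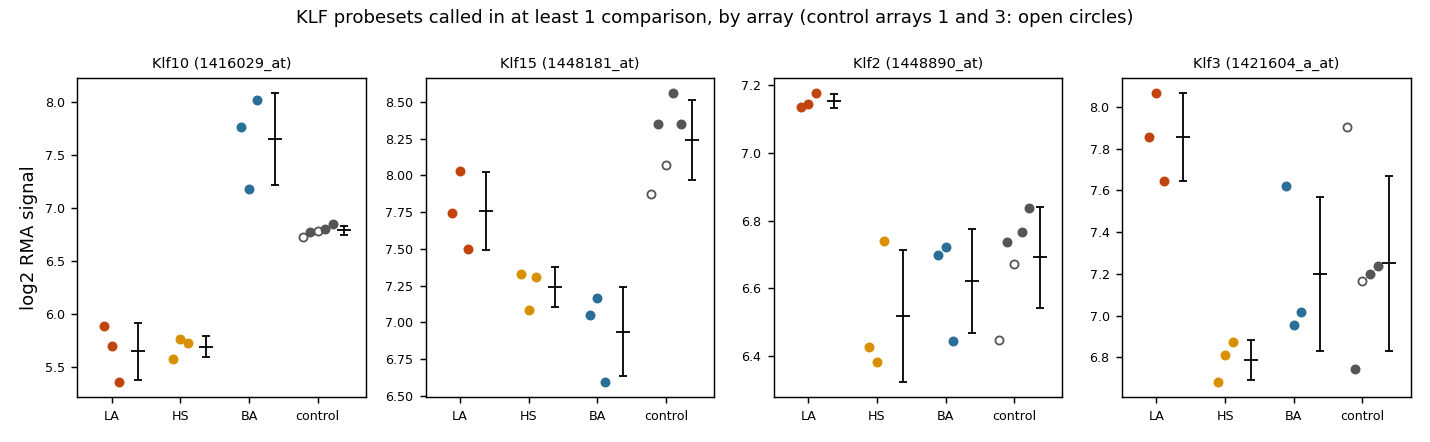
The log2 RMA signal of the 4 called probesets is shown for each array of Lipofectamine (LA), heat shock (HS), benzyl alcohol (BA) and control cells, with group mean and SD as bars and control arrays 1 and 3 as open circles. For Klf10 the 3 BA arrays lie above and the LA and HS arrays below the 5 control arrays, and for Klf2 the 3 LA arrays lie above all others.

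Between treatments the counts were as small. Lipofectamine against heat shock gave 2 called KLF probesets, both higher, with 5.72% of all probesets called (4.42% higher, 1.30% lower). Benzyl alcohol against heat shock gave 1, higher, with 7.22% of all (5.44% higher, 1.78% lower). Benzyl alcohol against Lipofectamine gave 3, 1 higher and 2 lower, with 11.9% of all (6.71% higher, 5.22% lower). The comparisons share arrays, so that their values for a gene are not independent of each other. The median difference over the 24 probesets was 0.09, -0.04 and -0.13 in these comparisons, beside -0.05, -0.02 and 0.04 over all probesets.

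**Figure D3:**
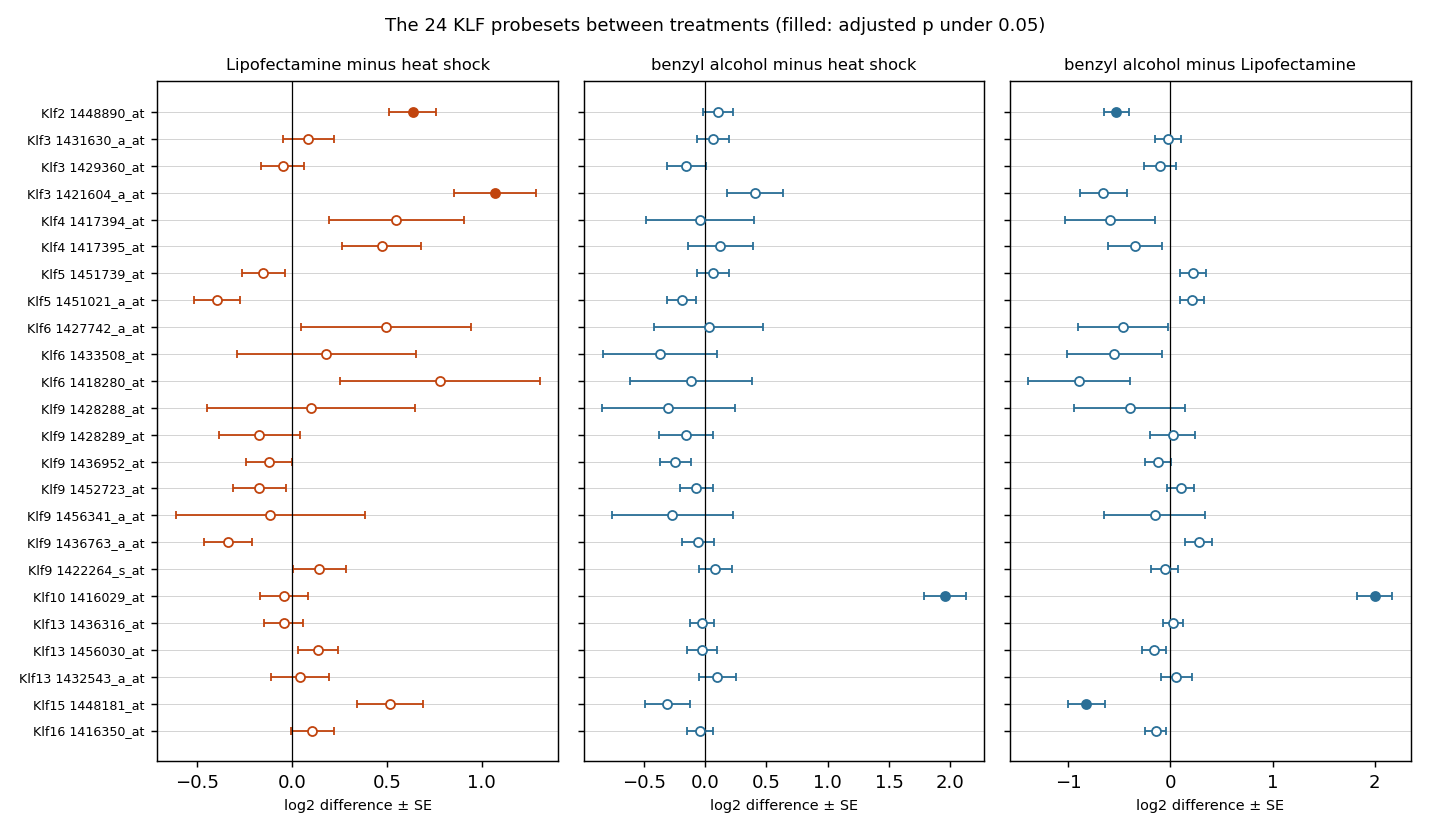
The log2 difference of each KLF probeset between treatments is plotted with its standard error for Lipofectamine minus heat shock, benzyl alcohol minus heat shock and benzyl alcohol minus Lipofectamine, filled where called. Klf10 stands at 1.96 and 1.999 in the benzyl alcohol comparisons, and Klf3 1421604_a_at at 1.07 in Lipofectamine minus heat shock.

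At the brightest probesets, Klf4, Klf6 and Klf9 had the widest control ranges of the 10 genes (1.37, 2.08 and 2.45). Klf4 maintains the epithelial barrier and is a reprogramming factor, Klf6 is a widely expressed early gene, and Klf9 responds to thyroid hormone and glucocorticoids. At its brightest probeset Klf4 measured 6.74, 6.95 and 6.14 with Lipofectamine, 5.95, 6.03 and 6.20 with heat shock, 5.82, 5.14 and 7.10 with benzyl alcohol and 6.57, 5.24, 6.56, 5.37 and 5.19 on control arrays 1 to 5. Klf6 measured 9.50, 9.76 and 9.26 with Lipofectamine, 8.75, 8.86 and 9.44 with heat shock, 9.20, 8.49 and 9.45 with benzyl alcohol and 9.95, 7.87, 9.54, 8.11 and 8.22 on the control arrays. In both genes control arrays 1 and 3 lay above all heat shock arrays, and the other control arrays were lower than all Lipofectamine and heat shock arrays.

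Klf9 showed the same split. Its brightest probeset had 8.30, 8.38 and 8.07 with Lipofectamine, 8.17, 8.09 and 8.20 with heat shock, 8.01, 7.19 and 8.36 with benzyl alcohol and 8.92, 6.68, 9.13, 7.10 and 6.72 on control arrays 1 to 5. All 9 treated arrays lay between the 2 sets of control arrays. The gap between the lower of control arrays 1 and 3 and the highest of the other 3 was 1.83 for Klf9, 1.32 for Klf6 and 1.19 for Klf4, and it reached 1.60 at another Klf6 probeset. Benzyl alcohol array 3 was the highest of its group at all 3 genes and array 2 the lowest.

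With all control arrays in the fit, none of the 12 probesets of these genes was called in the 6 comparisons. At the brightest probesets Lipofectamine differed from heat shock by 0.55 ± 0.36 for Klf4, 0.49 ± 0.45 for Klf6 and 0.10 ± 0.55 for Klf9. The Klf4 difference was called without control arrays 1 and 3, and also without arrays 2, 4 and 5, with its value unchanged. Control arrays enter it only through the shared variance. Those of Klf6 and Klf9 were called under no alternative run. At the dimmer Klf4 probeset, 1417395_at, the signal was 6.08, 6.00 and 5.88 with Lipofectamine, 5.66, 5.55 and 5.34 with heat shock, 5.33, 5.26 and 6.34 with benzyl alcohol and 5.77, 4.91, 5.71, 5.15 and 4.96 on the control arrays. All 3 Lipofectamine arrays lay above all 5 control arrays, by 0.69 ± 0.19 in the mean. Of the alternatives run, this was called in a fit with a variance trend and without control array 1, control array 3 or both. At the brightest probesets the Lipofectamine differences from control were 0.83 ± 0.32 for Klf4, 0.77 ± 0.40 for Klf6 and 0.54 ± 0.49 for Klf9. Those of heat shock were 0.28 ± 0.32, 0.28 ± 0.40 and 0.44 ± 0.49, and those of benzyl alcohol 0.24 ± 0.39, 0.31 ± 0.40 and 0.14 ± 0.48. Each was under 3 times its standard error. Without control arrays 1 and 3 the Lipofectamine differences were 1.34, 1.45 and 1.42 and the heat shock differences 0.79, 0.95 and 1.32, all called. The benzyl alcohol differences were then 0.75, 0.98 and 1.02, of which the last 2 were called. Because arrays 1 and 3 hold the highest control signals of these genes, leaving them out lowers the control mean and narrows the control spread. These calls thus depend on which control arrays are kept and are not taken as evidence of a response. Over all KLF probesets, leaving out control arrays 1 and 3 gave 13, 13 and 7 of 24 called with Lipofectamine, heat shock and benzyl alcohol, where 18.8%, 21.8% and 3.03% of all probesets were then called. Against control arrays 1 and 3 alone Klf9 was called lower with Lipofectamine (-0.77), heat shock (-0.87) and benzyl alcohol (-1.17). Klf4 and Klf6 were then at 0.05 and -0.23 with Lipofectamine, -0.50 and -0.73 with heat shock and -0.54 and -0.70 with benzyl alcohol, none called. The sign thus turned with the control arrays used for Klf6 and Klf9 in all 3 comparisons and for Klf4 with heat shock and benzyl alcohol, and nothing in the labels separates these arrays. Their part in these results was not tested.

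**Figure D4:**
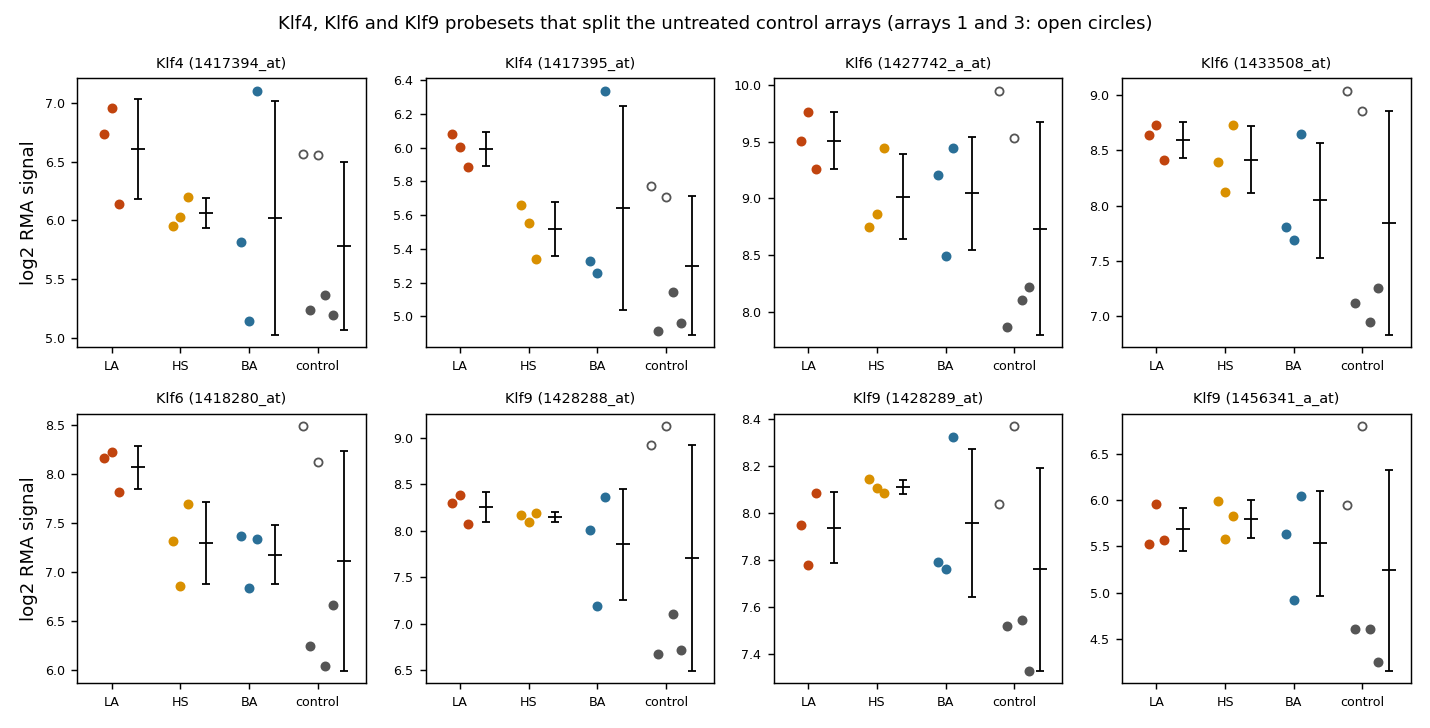
The log2 RMA signal of the 8 Klf4, Klf6 and Klf9 probesets with the widest split of the control arrays is shown for each LA, HS, BA and control array, with group mean and SD as bars. Control arrays 1 and 3 (open circles) lie above control arrays 2, 4 and 5 in every panel, by 1.83 for Klf9 1428288_at.

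**Figure D5:**
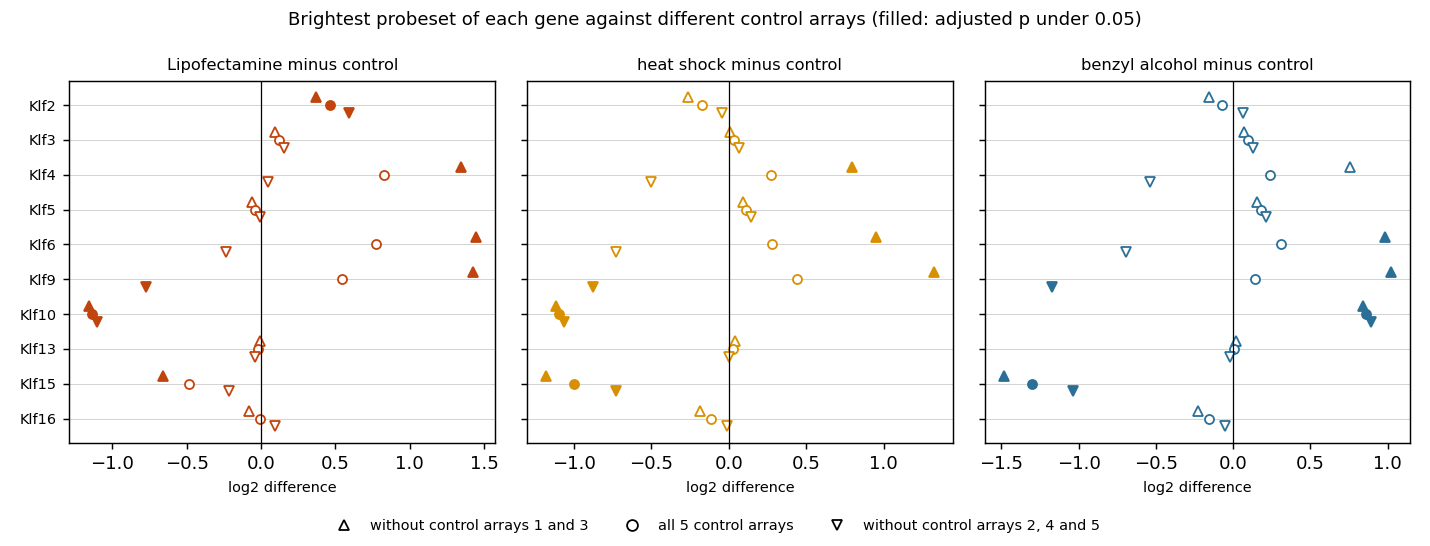
The log2 difference from control at the brightest probeset of each gene is given with all 5 control arrays (circles), without arrays 1 and 3 (upward triangles) and without arrays 2, 4 and 5 (downward triangles), filled where called. Klf10 keeps its place in each panel, while Klf9 moves with Lipofectamine between 1.42 and -0.77.

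Control arrays 1 and 3 lay wholly above or below the other 3 at 15 of 24 KLF probesets (62.5%), beside 38.7% of all. They lay above by 0.5 or more at 7 of 24 (29.2%), beside 2.91% of all 22626. Both are counts over probesets of a few genes that were chosen on these arrays. Over the 14 arrays the brightest probesets of Klf4 and Klf6 correlated at r = 0.888, those of Klf6 and Klf9 at 0.917 and those of Klf4 and Klf9 at 0.852. Klf10 had r of -0.142, -0.157 and -0.182 with the same 3 genes. These correlations describe arrays that share the treatments and the split of the controls.

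The other 4 of the 7 Klf9 probesets had control ranges of 0.17 to 0.51. The dimmest, 1422264_s_at, lay between 3.15 and 3.60 on all arrays, near the lowest signal of the table (2.67), and is of a type that can read related sequences of several genes. Values of the Klf9 probesets do not count as separate measurements of a gene's response.

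Klf5, a factor of proliferating epithelium, Klf13, a regulator of Ccl5 in T cells, and Klf16 showed no called difference in the 6 comparisons. Their brightest probesets differed from control by -0.04 to 0.18 for Klf5, by -0.02 to 0.03 for Klf13 and by -0.15 to -0.01 for Klf16. The second Klf5 probeset was at 6.42, 6.24 and 6.25 with heat shock and between 5.72 and 6.14 in control cells. It lay 0.35 ± 0.11 above control, not called. Klf13 1432543_a_at was lower than in control cells by 0.43 ± 0.14 with Lipofectamine, 0.48 ± 0.14 with heat shock and 0.37 ± 0.14 with benzyl alcohol, none called, and its 2 other probesets were within 0.20 of control in each comparison. Without control array 1, and without control arrays 1 and 3, Klf13 1432543_a_at was called lower both with Lipofectamine and with heat shock. The second Klf5 probeset was called higher with heat shock when control array 1, control array 3 or both were left out. With the benzyl alcohol arrays in the same fit, or without Lipofectamine array 3, Klf13 1432543_a_at was called lower with heat shock. In simulated arrays of the same group sizes 40.0% of log2 changes of 0.5 and 96.0% of changes of 1 were recovered in the Lipofectamine comparison. Those arrays had independent noise, 50 changed probesets of each size and no split of the controls. The shares therefore do not give the chance of a call for any of these genes.

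Promoter sequences from RefSeq (build GRCm38.p6) were found for 7 of the 10 genes, not for Klf5, Klf10 and Klf16, and 250 bases upstream of each start site were searched on both strands for 13 motifs. GC content was 59.6% to 78.4%, beside a median of 52.4% over 32851 promoters. The GC box GGGCGG, to which KLF and SP factors bind, occurred in 6 of the 7 (32.7% of all promoters), with Klf9 as the exception. The CACCC box CCACCC was present in Klf2, Klf3 and Klf13 (28.1% of all). The E-box CACGTG occurred in Klf4, Klf6 and Klf15 (6.02% of all), CCAAT in Klf6, Klf9, Klf13 and Klf15 (33.8%) and TGACG, the core of a cAMP response element (CRE), in Klf2, Klf4, Klf9, Klf13 and Klf15 (17.8%). The whole CRE TGACGTCA contains this core. No member window held the CRE (1.55% of all), the head-to-head heat shock element GAANNTTC (6.69%), TATAAA (12.4%), the AP-1 site TGACTCA (4.46%), the SMAD site GTCTAGAC (0.167%) or the CArG box of SRF (1.47%). The same element in its tail-to-tail form, TTCNNGAA, occurred in Klf15 (7.17% of all). The matches describe letters and not bound sites.

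Stretches of 5 of these windows are printed, since Klf2 and Klf15 were called and Klf4, Klf6 and Klf9 moved together over the arrays, with the named motifs in capitals and each sequence 5′ to 3′ along the gene. Klf2 (chr8:72318932-72318965, plus strand) is the only one with a MEF2 site (0.508% of all promoters), 118 to 109 bases upstream of its start. Klf4 (chr4:55532645-55532700, minus strand) has 3 GC boxes on the opposite strand, read here as CCGCCC, 2 of which overlap by 1 base, and an E-box. Klf6 (chr13:5861404-5861458, plus strand) has a CCAAT box read as ATTGG, a GC box and an E-box. Klf9 (chr19:23141146-23141190, plus strand) has 2 overlapping CCAAT boxes on opposite strands and a TGACG core. Klf15 (chr6:90462341-90462416, plus strand) has 2 E-boxes and between them the tail-to-tail heat shock element, 187 to 180 bases upstream.
Klf2: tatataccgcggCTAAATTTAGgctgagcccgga
Klf4: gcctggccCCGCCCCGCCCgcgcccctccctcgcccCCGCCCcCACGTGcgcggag
Klf6: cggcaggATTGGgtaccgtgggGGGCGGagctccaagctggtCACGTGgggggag
Klf9: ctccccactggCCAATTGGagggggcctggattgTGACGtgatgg
Klf15: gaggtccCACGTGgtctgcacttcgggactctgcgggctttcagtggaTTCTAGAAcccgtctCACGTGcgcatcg

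Klf4, Klf6 and Klf9, whose signals moved together over the arrays, had no motif of the 13 in common in these windows. Klf4 and Klf6 share the E-box and the GC box, Klf6 and Klf9 the CCAAT box, and Klf4 and Klf9 the TGACG core.

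Genes around the family are given as lists, which were drawn up with earlier results of these data known. Nothing is read from their counts, and the shares of all probesets are given in brackets. The array held 16 probesets of 10 other KLF and SP factors. Against control, 1 was called lower with Lipofectamine (3.10% of all), 0 with heat shock (5.96% in either direction) and 1 higher with benzyl alcohol (0.689%). The first was a probeset of Klf7 that is not its brightest (-0.65 ± 0.13), named after its value was seen because the count is small, as are Crebbp, Sin3a with heat shock, Smad4, Srf, Tgfbr1 and Mef2a in the next paragraphs. The last was Sp1, the ubiquitous activator of GC-box promoters, at 10.06 with benzyl alcohol against 9.13 in control cells (0.93 ± 0.13). The median over the 16 was 0.06, 0.04 and 0.13 with Lipofectamine, heat shock and benzyl alcohol. Sp3, a close relative of Sp1, was called higher than with heat shock both with Lipofectamine (0.83 ± 0.18) and with benzyl alcohol (0.80 ± 0.21).

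A further list holds 28 probesets for proteins that KLF factors recruit or that turn them over. Against control, 5 were called lower with Lipofectamine (3.10% of all), 2 lower with heat shock (4.91%) and 0 with benzyl alcohol (1.39% in either direction). The lower genes with Lipofectamine were Sap30, a subunit of the Sin3A complex (-0.73 ± 0.14), the acetyltransferase Kat2a (-0.68 ± 0.15), the ubiquitin ligase Wwp1 (-0.61 ± 0.09), the deacetylase Hdac2 (-0.55 ± 0.14) and the acetyltransferase Crebbp (-0.43 ± 0.09). With heat shock Fbxw7, which marks proteins for degradation, was lower (-0.59 ± 0.16), as was 1 dimmer probeset of Sin3a (-0.58 ± 0.15). The median over the 28 was -0.05, -0.23 and -0.04, beside -0.02, 0.03 and 0.02 over all probesets. Sin3a itself was called higher with Lipofectamine than with heat shock (0.71 ± 0.14). Between benzyl alcohol and Lipofectamine 4 of the 28 probesets were called higher (6.71% of all) and 3 lower (5.22%). The higher ones included Sap30 (1.18 ± 0.16), Hdac2 (0.84 ± 0.18) and Kat2a (0.72 ± 0.16), and the 3 lower ones were all of Sin3a (-0.71 ± 0.17 at its brightest probeset).

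Genes known to act upstream of KLF genes were read by 43 probesets of 18 genes. Against control, 1 was called lower with Lipofectamine (3.10% of all), 4 lower with heat shock (4.91%) and 0 with benzyl alcohol (1.39% in either direction). Mef2c, a factor that binds MEF2 sites, was lower with heat shock (-0.71 ± 0.19), as were single dimmer probesets of Srf (-0.47 ± 0.13), Tgfbr1 (-0.62 ± 0.14) and Mef2a (-0.41 ± 0.11). The call with Lipofectamine was a dimmer probeset of Smad4 (-0.75 ± 0.13). The median over the 43 was 0.05, -0.16 and -0.04. Mef2d was higher with Lipofectamine than with heat shock (0.49 ± 0.13), and among the TGF-beta ligands, known to induce Klf10, Tgfb1 was lower with benzyl alcohol than with Lipofectamine (-0.89 ± 0.24), while Tgfb2 (0.63 ± 0.12) and Tgfb3 (0.50 ± 0.10) were higher. Tgfb3 was also higher with benzyl alcohol than with heat shock (0.34 ± 0.10). Nr3c1, the glucocorticoid receptor, was higher with benzyl alcohol than with heat shock (0.45 ± 0.12).

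Genes described in other cells as KLF targets were read by 27 probesets of 18 genes. Against control, 1 was called higher with Lipofectamine (1.78% of all), 0 with heat shock (5.96% in either direction) and 4 higher with benzyl alcohol (0.689%). None was called lower. With Lipofectamine this was Cdkn1a, the cell cycle inhibitor p21 (1.23 ± 0.32). Its mean was 11.48 with Lipofectamine, 11.56 with benzyl alcohol, 11 with heat shock and 10.25 in control cells. Of its differences from control only that with Lipofectamine was called. The 4 called with benzyl alcohol were of the galectin Lgals3 (1.37 ± 0.13), the growth factor Pdgfa (1.24 ± 0.16, and a second probeset) and Smad7 (0.69 ± 0.14). Smad7 is an inhibitor of TGF-beta signalling that Klf10 is known to repress. The median over the 27 was -0.07, -0.04 and 0.27. Between benzyl alcohol and heat shock 9 of the 27 were called, where 5.44% of all probesets were higher, and between benzyl alcohol and Lipofectamine 10, where 6.71% were, all higher with benzyl alcohol. The 9 probesets read 5 genes and the 10 read 7, with up to 3 probesets of Ccnd1 or Odc1 among them. Whether any of these genes responds to a KLF factor in these cells was not measured.

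For the 3 genes with the widest range of group means, the genes with the most similar signals over the 14 arrays were sought among the brightest probesets of 12393 genes, by Pearson's r and with no test. Closest to Klf10 were Riox2 (r = 0.972), Ergic2 (0.945), Polr2m (0.940), Cmtr2 (0.933) and Errfi1 (0.931), which share its high benzyl alcohol signal. Closest to Klf15 were Ldb1 (0.953), Slc12a7 (0.947), Tyr (0.905), Dcaf15 (0.899) and Ccar2 (0.898). Closest to Klf4 were Sertad1 (0.957), the early antiproliferative gene Btg2 (0.950), Dnajb9 (0.935), Bbc3 (0.913) and Irx3 (0.908). Such values rest on arrays that share treatments, and for Klf4 also on the split of the control arrays.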

How the data were processed

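The authors read Affymetrix arrays of B16-F10 cells with GCOS 1.2 and deposited log2 signals after RMA, whose version is not given in the sources used here. RMA corrects background, normalizes the arrays together and summarizes probes, so array medians do not check array quality. From these values limma 3.58.1 in R 4.3.3 was run on 22626 of 22690 probesets, leaving out 64 Affymetrix controls, with no filter on signal. Symbols came from the platform annotation (20380 probesets have 1 symbol, 691 several, 1555 none). Lipofectamine, heat shock and control arrays were fitted together (11 arrays), and comparisons with benzyl alcohol in a fit of all 14. The text names every member probeset, up to 4 called genes per list and comparison by their brightest probeset, and the 5 genes most alike in signal to each of 3 members. Members and lists were chosen with earlier results of these data known. The fit was tested on simulated data. Promoters were matched by symbol in RefSeq sequence for 7 of 10 genes.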

Additional observations from a re-analysis of the deposited data

Results flagged for a closer look

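Of the 24 KLF probesets, tested for an array far from the rest among the 5 control arrays, 1 had such an array. Klf3 1431630_a_at measured 8.913 on control array 3, with the nearest other control array at 9.065. The gap took up 0.748 of the control range, above Dixon's critical value of 0.71. About 1 in 20 groups is expected to show such an array by chance. The treated groups have 3 arrays each and were not examined in this way.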

How the results depend on the processing

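Counts of called KLF probesets moved with the control arrays, whose 2 sets were told apart by their signals on these same arrays. Without control arrays 1 and 3 they were 13 with Lipofectamine, 13 with heat shock and 7 with benzyl alcohol, each against control (18.8%, 21.8% and 3.03% of all probesets), beside 2, 2 and 2 with all controls. Without control arrays 2, 4 and 5 they were 3 with Lipofectamine, 5 with heat shock and 5 with benzyl alcohol (4.62%, 3.72% and 12.5% of all), and Klf9 then turned to -0.77 with Lipofectamine, -0.87 with heat shock and -1.17 with benzyl alcohol. Leaving out each array in turn gave 1 to 9 called with Lipofectamine against control (9 without control array 1, 4 without control array 3), 2 to 4 with heat shock (4 without control array 1 or 3), 1 to 2 with benzyl alcohol, 0 to 2 for Lipofectamine against heat shock, 1 for benzyl alcohol against heat shock and 1 to 4 for benzyl alcohol against Lipofectamine. Without moderation the count was 1 with Lipofectamine and 1 with benzyl alcohol against control and 1 for Lipofectamine against heat shock. Fits of the 2 groups alone gave 1 for benzyl alcohol against control and 5 for benzyl alcohol against Lipofectamine. Keeping the brighter 50% of the probesets leaves out the brightest probesets of Klf2, Klf4, Klf5, Klf10 and Klf16. It gave 0, 1 and 1 with Lipofectamine, heat shock and benzyl alcohol against control. It gave 1 for Lipofectamine against heat shock, 0 for benzyl alcohol against heat shock and 1 for benzyl alcohol against Lipofectamine. The share of all probesets called was computed only for the 2 sets of control arrays left out. Nothing about the KLF genes is read from the other counts.

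Deviations of 18 same-numbered pairs of arrays from their group means correlated at -0.56 to 0.442, 3 of them over 0.1. Differently numbered pairs were not examined, so whether replicate numbers pair the arrays was not tested. With a replicate block over replicates 1 to 3, the count with Lipofectamine against control was 1, as Klf2 (0.53) was no longer called. The array weights did not converge (1 Lipofectamine array received 97.9), and that fit was not run. In the simulated arrays, which lacked the split of the controls, a log2 change of 0.5 was often missed.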
